A study of Mus musculus with 15 samples.

Results

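The transcripts of 35 genes of DNA damage sensing and repair were followed in mouse bone marrow cells. The genes were taken as a list of mouse symbols. Each symbol matched 1 row of the deposited table, so 35 of 56979 Ensembl gene identifiers are described. The list names genes and sets no threshold on their levels, but it was drawn up with earlier results of these data known. All 35 passed the filter on low values in both cell types. They belong to 8 groups by role: signalling from damage, processing of broken ends, homologous recombination, the Fanconi anaemia pathway, end joining, base excision, mismatch repair and nucleotide excision.

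Polyadenylated RNA had been sequenced from 15 libraries of wild-type mice in 5 groups of 3. Of the bone marrow-derived macrophages (BMDM), LPS_NZM was labelled LPS+NZM, LPS was labelled LPS alone, and Control was labelled as given vehicle. LPS stands for lipopolysaccharide, a cell wall component of bacteria that macrophages sense through Tlr4. Of the cells named BMSC, Aged_NZM was labelled H2HO+NZM and Aged was labelled H2HO alone. NZM followed a pretreatment with a model drug in both cell types. The labels explain neither NZM nor H2HO, and they give no age of the animals and no dose or time. They number the libraries of a group without saying whether these are separate animals, cultures or repeat preparations, so the p-values rest on a spread between libraries that may be technical only. BMDM with NZM alone and untreated BMSC were not analysed here.

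Cells meet DNA damage with sensors, signalling kinases and repair enzymes that differ by lesion. Breaks through both strands are held and trimmed by the Mre11-Rad50-Nbn complex and reported by the kinase Atm, while exposed single-stranded DNA is reported by the kinase Atr. They are then rejoined directly by end joining or copied from the sister chromatid by homologous recombination, which works in S and G2 phase. Oxidised, deaminated or missing bases are replaced by base excision repair, bulky lesions are cut out by nucleotide excision repair, and replication errors are corrected by mismatch repair. Activated macrophages produce reactive oxygen and nitric oxide, both of which damage bases. Many genes for recombination, mismatch repair and the checkpoint kinases are transcribed with the replication genes in cycling cells, in part through E2F factors.

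Values are TPM, the length-corrected share of each transcript, scaled to the same total in every library. Changes are differences of log2(TPM + 1), which understate the change of a gene at a low level. A gene is called where limma's p, adjusted by the Benjamini-Hochberg method over all genes tested, is under 0.05. The median of all tested genes moved by -0.48 on the log2 scale in LPS against Control, by 0.40 in LPS_NZM against LPS and by -0.18 in Aged_NZM against Aged. Each count is therefore also given after every library was centred on the median of its tested genes. In bulk libraries, fewer cells of a type and less RNA per cell cannot be told apart. The depth behind each TPM is unknown, and 21360 to 23398 identifiers were above 0 in a library.

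The labelled cell types were checked against defining markers. The summed level of 10 macrophage markers was 22360 to 22840 TPM in LPS_NZM, 22750 to 22940 TPM in LPS and 26930 to 29260 TPM in Control. In BMSC it was 109.5 to 121.5 TPM in Aged_NZM, where Itgam and Ptprc were at 0, and 121.9 to 130.3 TPM in Aged, where Adgre1 was at 0. The sum of 12 stromal markers was 9007 to 9071 TPM in Aged_NZM and 3942 to 4225 TPM in Aged. The BMDM libraries held transcripts of the stromal markers too, at 3381 to 3505 TPM in LPS_NZM, 2888 to 3112 TPM in LPS and 3643 to 3884 TPM in Control, with no marker at 0. Their 12 neutrophil markers summed to 2137 to 2552 TPM in LPS_NZM, 2344 to 2584 TPM in LPS and 1677 to 1868 TPM in Control. The 10 mast cell and basophil markers ranged from 20.1 to 539.5 TPM among the Control libraries. The BMDM values are therefore levels of cultures that held transcripts listed as markers of other cell types. The sums do not show whether these came from other cells or from the macrophages. The part of any other cells in the results was not tested.

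RefSeq promoter windows of build GRCm38.p6, 250 bases before to 50 bases after each gene's start, were searched for letters bound by E2F factors. The motifs were TTTCCCGC, TTTCGCGC, TTTGCCGC and TTTGGCGC on either strand, which can overlap one another only across strands. A window was given for 26 of the 35 genes, and 6 of these held a motif (Bard1, Chek2, Brca2, Xrcc6, Rad51c and Msh6), or 23.1%. The share among all 27025 genes with a window was 2.6%. In the 250 bases before the start the motif stood in 4 of 26 repair genes (15.4%), against 2.16% of all genes. These 4 are printed because they place the same letters before genes of 3 different groups by role, with the match in capitals and the gene's start just after the last base. The windows are chr1:71102973-71103222 on the minus strand, chr5:110839733-110839982 on the plus strand, chr5:150522371-150522620 on the plus strand and chr15:82016119-82016368 on the plus strand.
Bard1: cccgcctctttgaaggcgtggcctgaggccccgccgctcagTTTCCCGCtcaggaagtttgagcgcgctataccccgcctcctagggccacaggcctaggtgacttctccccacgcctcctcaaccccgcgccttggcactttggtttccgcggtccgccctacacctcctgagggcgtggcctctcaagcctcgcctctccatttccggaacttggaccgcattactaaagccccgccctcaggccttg
Chek2: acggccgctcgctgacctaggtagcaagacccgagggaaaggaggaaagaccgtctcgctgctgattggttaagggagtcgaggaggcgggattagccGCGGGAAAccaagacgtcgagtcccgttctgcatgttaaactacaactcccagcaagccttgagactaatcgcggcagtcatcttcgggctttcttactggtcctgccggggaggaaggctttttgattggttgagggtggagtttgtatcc
Brca2: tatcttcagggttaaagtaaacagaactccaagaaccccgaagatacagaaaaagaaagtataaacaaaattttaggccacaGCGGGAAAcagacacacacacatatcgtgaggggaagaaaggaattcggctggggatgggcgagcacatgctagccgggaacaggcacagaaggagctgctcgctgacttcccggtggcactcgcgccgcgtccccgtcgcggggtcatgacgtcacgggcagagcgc
Xrcc6: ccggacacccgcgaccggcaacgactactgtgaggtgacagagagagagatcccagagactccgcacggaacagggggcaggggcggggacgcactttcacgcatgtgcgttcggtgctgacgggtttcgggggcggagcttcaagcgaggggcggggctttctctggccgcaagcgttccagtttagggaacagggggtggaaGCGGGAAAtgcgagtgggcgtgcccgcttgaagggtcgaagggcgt
The match lies 209 to 202 bases before the start of Bard1, 152 to 145 before Chek2, 168 to 161 before Brca2 and 46 to 39 before Xrcc6. In Bard1 it reads as TTTCCCGC, and in the other 3 as the same letters of the opposite strand. A match describes the letters and shows no binding.

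Levels of the 35 genes spanned a wide range. The median over the genes of their group means was 8.31 TPM in LPS_NZM, 4.26 TPM in LPS, 11.6 TPM in Control, 13.1 TPM in Aged_NZM and 22.02 TPM in Aged. Apex1, which encodes the endonuclease that cuts at missing bases, had the highest mean in 4 of the 5 groups. In LPS the highest was Polb, the polymerase that fills the resulting gap. The lowest mean was that of Bard1, the partner of Brca1, in LPS_NZM (1.11 TPM) and that of Brca2 in LPS (0.613 TPM). Brca2, Bard1, Rad51c and Ung lay under 1 TPM in all 3 LPS libraries.

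Of the 5 groups, LPS had the lowest mean for 32 of 35 genes and Aged had the highest for 25. Among the BMDM groups alone, LPS had the lowest mean for 33 genes and Control the highest for 28. For 25 genes both BMSC means lay above all 3 BMDM means, and for 0 genes both lay below. These counts are on the deposited scale, and the share of all genes in the same order was not computed. The median log2(TPM + 1) of all 16696 genes tested over the 15 libraries was also lowest in LPS and highest in Aged. It was 3.16 to 3.18 in the LPS libraries and 3.87 to 3.93 in the Aged libraries. Rad51c, Xrcc5 and Ddb2 were set furthest apart in the plot of levels. Ddb2 was at 37.4, 37.01 and 35.1 TPM in the Aged_NZM libraries and 25.6, 25 and 23.6 TPM in the Aged libraries, while all 9 BMDM libraries lay between 1.46 and 5.14 TPM. Cell type and treatment differ together between BMSC and BMDM, so these levels are descriptions without a test.

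**Figure D1:**
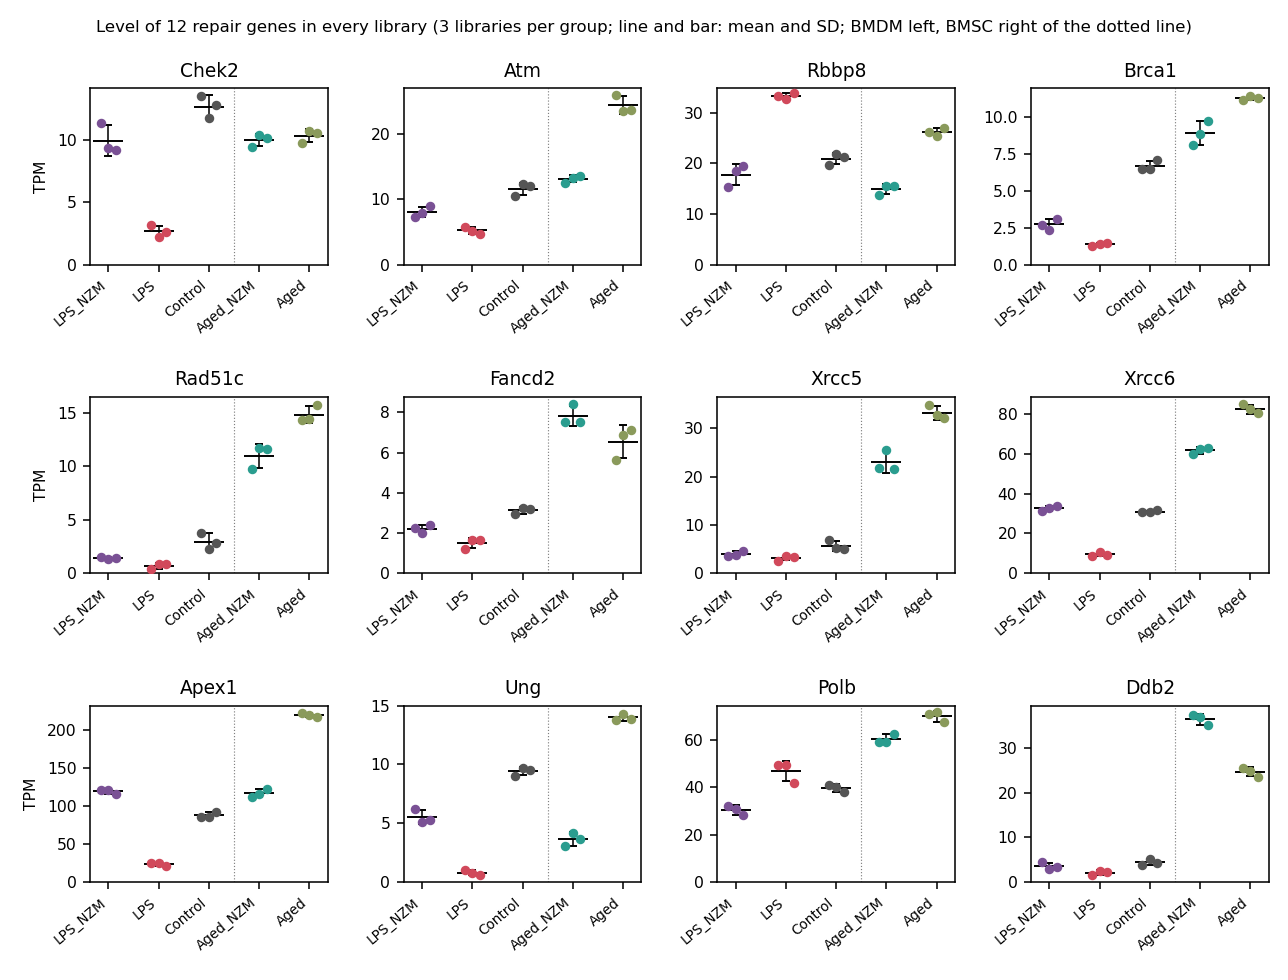
TPM (linear axis from 0) of 12 repair genes in every library, with 3 points per group, a line for the mean and bars for the SD, and the BMDM groups left of the dotted line. In BMDM the LPS mean is the lowest of the 3 groups for 10 of the genes and the highest for Rbbp8 and Polb. In BMSC, Aged_NZM lies under Aged for Ung, Apex1 and Atm and above it for Ddb2 and Fancd2.

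The comparison of LPS with Control shows how the repair genes stood in macrophages given the model drug. Transcripts of 33 of the 35 genes fell, across all 8 groups by role. The largest fall was that of Ung, the glycosylase that removes uracil (-2.55), followed by Msh6, which recognises mismatches (-2.0), and the checkpoint kinase gene Chek2 (-1.90). The other 2 rose: Rbbp8, whose product starts the trimming of broken ends (0.64), and Polb (0.23). Lower calls made up 65.6% of all tested genes and higher calls 15.2%. The median change of the 35 was -1.03, beside -0.48 for all tested genes. After centring, 21 of the 35 were lower and 2 higher, against a background of 29.1% lower and 36.5% higher, and the median was -0.48 beside 0.066. The 12 genes called only before centring were Bard1, Xrcc2, Fanca, Fancd2, Fanci, Xrcc4, Xrcc5, Lig4, Lig3, Ercc1, Xpa and Ddb2.

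LPS_NZM against LPS asks what NZM did in LPS-treated macrophages. Transcripts of 30 of the 35 genes rose with NZM. The largest rises were those of the base excision genes Apex1 (2.30) and Ung (1.88) and of Xrcc6, a subunit of the Ku ring that grips DNA ends (1.68). The 5 end joining genes, Xrcc6 among them, had a median change of 0.31, and 3 of them were called higher. Rbbp8 (-0.88) and Polb (-0.61), which were the 2 higher genes with LPS alone, fell. Bard1, Xrcc4 and Xrcc5 were not called, with log2 changes of 0.26, 0.16 and 0.25. Higher calls made up 60.4% of all tested genes and lower calls 16.9%. The median change was 0.65 beside 0.40 for all tested genes. After centring, 16 of the 35 were higher and 3 lower, against a background of 29.8% higher and 35.3% lower, with Xrcc4 as the added lower gene. No gene was called in opposite directions before and after centring. This comparison and the previous one share the 3 LPS libraries.

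LPS_NZM against Control sets the treated macrophages beside those given vehicle. Transcripts of 22 genes were lower in LPS_NZM and 1, Apex1, was higher. The largest differences were those of Brca1 (-1.05) and Chek1 (-1.02), both of which act in S phase, followed by Msh6 (-0.88). Lower calls made up 29.1% of all tested genes and higher calls 18.6%. The 12 genes without a call included Xrcc6 (0.071, adjusted p = 0.428) and Ogg1, the glycosylase for oxidised guanine (-0.040, adjusted p = 0.725). After centring 14 were lower and 2 higher, against a background of 22% lower and 24.9% higher. The 8 genes called only before centring were Atr, Chek2, Trp53bp1, Rbbp8, Bard1, Fancd2, Xrcc5 and Lig4. The gene added as higher was Xrcc1, the scaffold of base excision (log2 change 0.20, SE 0.072, adjusted p = 0.0476).

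Aged_NZM against Aged asks what NZM did in BMSC given H2HO. Transcripts of 26 of the 35 genes fell and those of 2 rose. Ung fell most (-1.70), followed by the checkpoint kinase gene Chek1 (-1.03), Apex1 (-0.91), Atm (-0.84) and Rbbp8 (-0.77). Ddb2, which recognises ultraviolet lesions (0.54), and Fanci, a subunit of the clamp at crosslinked DNA (0.26), rose. Lower calls made up 48.9% of all tested genes and higher calls 21.6%. The median change was -0.41 beside -0.18 for all tested genes. The 7 genes without a call were Chek2, Trp53bp1, Palb2, Rad54l, Fancd2, Xrcc4 and Prkdc. After centring 21 were lower and 4 higher, against a background of 35.4% lower and 31.1% higher, with Fancd2 and Xrcc4 added to the higher genes.

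**Figure D2:**
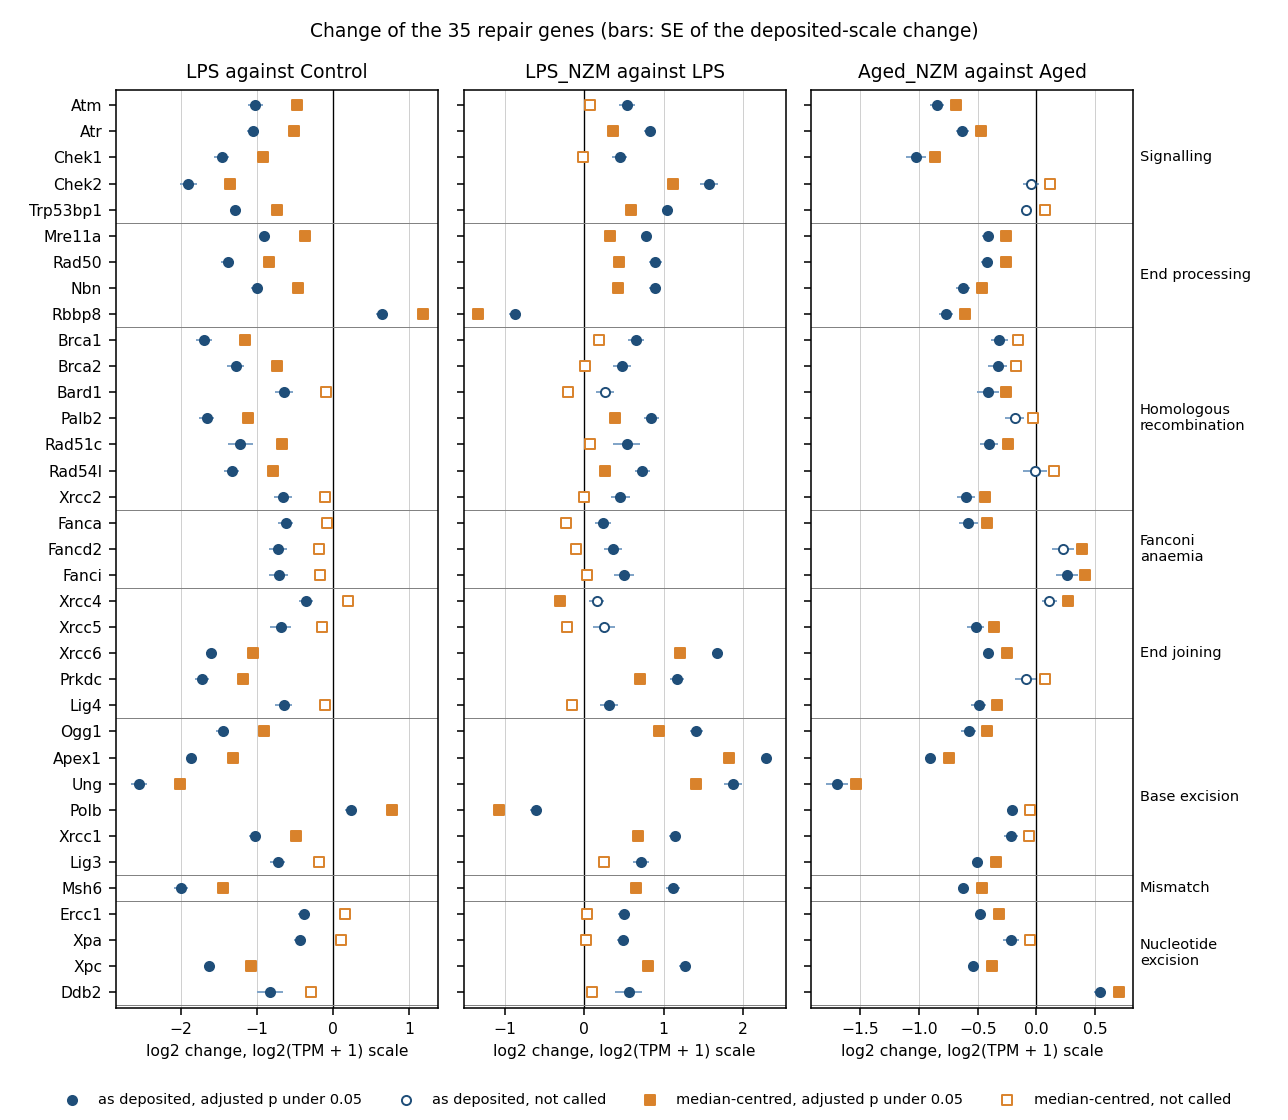
Log2 change of each of the 35 genes in LPS against Control, LPS_NZM against LPS and Aged_NZM against Aged, as deposited (circles, bars for the SE) and after median centring (squares), with filled symbols for calls and horizontal lines between the groups by role. Centring shifts every gene of a comparison by a similar amount, and Ung, Apex1, Msh6, Xpc and Xrcc6 stay called on both scales in all 3 comparisons.

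The response to NZM was set against itself in the 2 cell types, as the change in BMSC minus the change in BMDM. The difference was negative and called for 29 genes and positive for 1, Polb (0.40). It was largest for Ung (-3.58), Apex1 (-3.20), Xrcc6 (-2.09) and Ogg1 (-1.99), which rose with NZM in BMDM and fell with it in BMSC. Lower calls made up 54.8% of all 16696 genes tested in this fit and higher calls 17.2%. Rbbp8, Fancd2, Fanci, Xrcc4 and Ddb2 had no called difference. Rbbp8 fell with NZM in both cell types, and its difference was 0.11 (SE 0.10, adjusted p = 0.372). After centring 21 genes were lower and 6 higher, against a background of 28.7% lower and 39.9% higher. The added higher genes were Rbbp8, Fancd2, Fanci, Xrcc4 and Ddb2. The model drug differs along with the cell type, and these cannot be told apart.

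**Figure D3:**
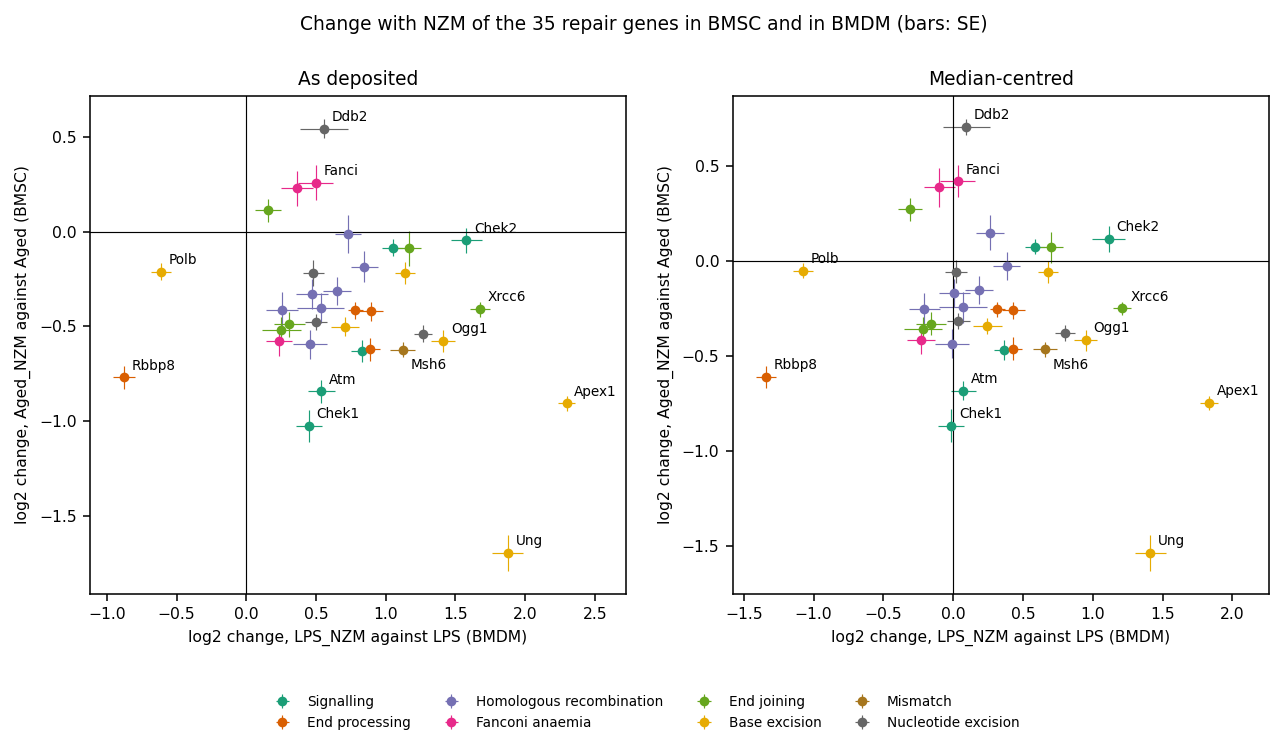
Log2 change with NZM in BMSC (vertical, Aged_NZM against Aged) plotted against that in BMDM (horizontal, LPS_NZM against LPS) for the 35 genes, as deposited and after median centring, coloured by role, with bars for the SE. Ung, Apex1, Xrcc6 and Ogg1 lie in the lower right, and Rbbp8 and Polb alone lie left of 0 on the deposited scale.

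All 5 genes of signalling from damage fell with LPS, beside 65.6% of all tested genes. After centring all 5 were still lower, beside 29.1% of all tested genes. In BMSC 3 of the 5 were called lower with NZM, beside 48.9% of all tested genes, and the others were not called. Atm, the kinase that answers broken ends, was at 7.36, 7.84 and 8.92 TPM in the LPS_NZM libraries, 5.8, 5.15 and 4.73 TPM in the LPS libraries and 10.6, 12.3 and 11.98 TPM in the Control libraries. The 3 groups did not overlap. Atm fell with LPS (log2 change -1.02, SE 0.097, adjusted p = 4.18e-06) and rose with NZM after LPS (log2 change 0.54, SE 0.097, adjusted p = 0.000521), the second call being lost after centring (0.074, adjusted p = 0.496). In BMSC Atm was at 12.6, 13.2 and 13.6 TPM in the Aged_NZM libraries and 25.9, 23.5 and 23.8 TPM in the Aged libraries, so all Aged_NZM libraries lay under all Aged libraries (log2 change -0.84, SE 0.059, adjusted p = 1.30e-06).

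Atr, the kinase that answers stalled replication, was at 8.13, 8.28 and 8.53 TPM in the LPS_NZM libraries, 4.31, 4.6 and 3.86 TPM in the LPS libraries and 9.6, 10.2 and 9.96 TPM in the Control libraries. The LPS libraries were the lowest and the groups did not overlap. Its log2 change was -1.06 with LPS (adjusted p = 4.20e-07) and 0.83 with NZM after LPS (adjusted p = 2.84e-06). In LPS_NZM against Control it was called at -0.23 (adjusted p = 0.0276), but not after centring. The call was also lost without LPS_NZM replicate 1, LPS_NZM replicate 2, Control replicate 2 or Control replicate 3 (log2 changes of -0.23 to -0.21, adjusted p = 0.0674 to 0.082). In BMSC Atr was at 11.2, 12.2 and 11.2 TPM in the Aged_NZM libraries and 18.98, 17.8 and 18.3 TPM in the Aged libraries, again without overlap (log2 change -0.63, SE 0.059, adjusted p = 9.48e-06).

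Of the effector kinases, Chek2, which acts under Atm, was at 11.4, 9.37 and 9.2 TPM in the LPS_NZM libraries, 3.17, 2.26 and 2.62 TPM in the LPS libraries and 13.6, 11.8 and 12.8 TPM in the Control libraries. Its LPS libraries lay far under both other groups (log2 change -1.90, SE 0.11, adjusted p = 1.17e-07), and its rise with NZM was the largest of the signalling genes (log2 change 1.58, SE 0.11, adjusted p = 4.89e-07). It was still lower in LPS_NZM than in Control (-0.32, adjusted p = 0.0381), a call that was lost after centring (adjusted p = 0.124) and without LPS_NZM replicate 2, LPS_NZM replicate 3, Control replicate 1 or Control replicate 3 (log2 changes of -0.32 to -0.27, adjusted p = 0.0843 to 0.115). In BMSC the groups overlapped at 9.45, 10.4 and 10.2 TPM in the Aged_NZM libraries and 9.8, 10.7 and 10.6 TPM in the Aged libraries, and no change was called (log2 change -0.046, SE 0.067, adjusted p = 0.56). Chek1, which acts under Atr, behaved otherwise in BMSC, at 5.78, 7.09 and 6.54 TPM in the Aged_NZM libraries and 13.1, 14.8 and 14.7 TPM in the Aged libraries (log2 change -1.03, SE 0.084, adjusted p = 3.56e-06). The Aged_NZM libraries held less Chek1 than any Aged library. In BMDM Chek1 was at 2.61, 2.54 and 2.84 TPM in the LPS_NZM libraries, 1.88, 1.64 and 1.54 TPM in the LPS libraries and 5.99, 6.52 and 6.75 TPM in the Control libraries. It fell with LPS (-1.47, adjusted p = 2.20e-07), and its rise with NZM (0.45, adjusted p = 0.00149) had no counterpart after centring (-0.016).

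Trp53bp1, the chromatin protein that steers breaks to end joining, was at 13.8, 14.2 and 12.9 TPM in the LPS_NZM libraries, 5.68, 6.56 and 6.02 TPM in the LPS libraries and 16.6, 17.1 and 14.9 TPM in the Control libraries. The groups did not overlap, with log2 changes of -1.28 for LPS and 1.05 for NZM after LPS (adjusted p = 1.08e-07 and 5.01e-07). Its call in LPS_NZM against Control (-0.23, adjusted p = 0.0277) was lost after centring and without LPS_NZM replicate 1, LPS_NZM replicate 3, Control replicate 1 or Control replicate 2 (log2 changes of -0.24 to -0.20, adjusted p = 0.059 to 0.0952). Its BMSC levels were 21.2, 21.7 and 21.2 TPM in the Aged_NZM libraries and 23.1, 22.3 and 22.9 TPM in the Aged libraries, a small shift that was not called (log2 change -0.086, SE 0.046, adjusted p = 0.123).

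Of the genes that process broken ends, the 3 of the Mre11 complex moved together and Rbbp8 moved against them in BMDM. Rad50, the ATPase that tethers the ends, was at 13.6, 13.3 and 15.2 TPM in the LPS_NZM libraries, 6.18, 7.72 and 7.36 TPM in the LPS libraries and 19.2, 21.2 and 19.7 TPM in the Control libraries. It fell with LPS (log2 change -1.38, SE 0.086, adjusted p = 1.71e-07) and rose with NZM (log2 change 0.90, SE 0.086, adjusted p = 4.92e-06), without overlap of groups. Mre11a, the nuclease, and Nbn, which recruits Atm, had log2 changes of -0.91 and -1.0 with LPS, and of 0.78 and 0.89 with NZM after LPS. In BMSC all 3 fell with NZM, by log2 changes of -0.42 for Mre11a, -0.42 for Rad50 and -0.62 for Nbn. These calls held after centring.

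Rbbp8 was at 15.4, 18.4 and 19.4 TPM in the LPS_NZM libraries, 33.4, 32.7 and 33.8 TPM in the LPS libraries and 19.8, 21.8 and 21.3 TPM in the Control libraries. The LPS libraries were the highest of all 5 groups, with LPS_NZM and Control below them. The changes were called both with LPS (log2 change 0.64, SE 0.078, adjusted p = 2.71e-05) and with NZM after LPS (log2 change -0.88, SE 0.078, adjusted p = 2.74e-06), and centring enlarged them to 1.19 and -1.34. Its call in LPS_NZM against Control (-0.23, adjusted p = 0.0342) was lost after centring and without LPS_NZM replicate 1, Control replicate 2 or Control replicate 3 (log2 changes of -0.22 to -0.14, adjusted p = 0.083 to 0.102). BMSC levels were 13.8, 15.6 and 15.5 TPM in the Aged_NZM libraries and 26.2, 25.4 and 26.9 TPM in the Aged libraries (log2 change -0.77, SE 0.060, adjusted p = 2.59e-06), so NZM went with less Rbbp8 in both cell types.

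All 7 genes of homologous recombination fell with LPS, and 6 rose with NZM after it, at low levels in BMDM. This stands beside 65.6% of all tested genes lower with LPS and 60.4% higher with NZM, and after centring 5 of the 7 were lower with LPS and 2 higher with NZM. Brca1, a subunit of the ubiquitin ligase that commits breaks to recombination, was at 2.72, 2.38 and 3.1 TPM in the LPS_NZM libraries, 1.25, 1.39 and 1.48 TPM in the LPS libraries and 6.51, 6.5 and 7.11 TPM in the Control libraries. The groups did not overlap, and LPS_NZM lay closer to LPS than to Control in TPM. The log2 changes were -1.70 with LPS (adjusted p = 1.33e-07), 0.65 with NZM after LPS (adjusted p = 0.000206) and -1.05 in LPS_NZM against Control (adjusted p = 2.21e-05). After centring the change with NZM was 0.19 and not called. In BMSC Brca1 was at 8.12, 8.85 and 9.77 TPM in the Aged_NZM libraries and 11.1, 11.4 and 11.3 TPM in the Aged libraries (log2 change -0.31, SE 0.074, adjusted p = 0.00381), and this call was also lost after centring (adjusted p = 0.0922).

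Brca2, a mediator of recombination, was at 1.18, 1.1 and 1.45 TPM in the LPS_NZM libraries, 0.690, 0.540 and 0.610 TPM in the LPS libraries and 2.76, 3.0 and 3.01 TPM in the Control libraries. The LPS libraries were all under 1 TPM, and the groups did not overlap. Its fall with LPS (log2 change -1.28, SE 0.11, adjusted p = 2.59e-06) held after centring, but its rise with NZM (0.47, adjusted p = 0.00346) did not (0.0093). For BMSC the values were 4.64, 5.22 and 4.54 TPM in the Aged_NZM libraries and 6.36, 6.21 and 6.25 TPM in the Aged libraries (log2 change -0.33, SE 0.080, adjusted p = 0.00458), a fall that was also lost after centring. Palb2, which joins Brca1 to Brca2, was at 3.2, 2.9 and 2.97 TPM in the LPS_NZM libraries, 1.17, 1.42 and 1.13 TPM in the LPS libraries and 6.55, 6.05 and 5.61 TPM in the Control libraries. It had the largest rise of this group with NZM (log2 change 0.85, SE 0.099, adjusted p = 2.17e-05), kept after centring, and still lay under Control (-0.81, adjusted p = 0.000102). In BMSC it was at 4.64, 4.56 and 4.76 TPM in the Aged_NZM libraries and 5.72, 5.59 and 4.99 TPM in the Aged libraries, without a call (-0.18, adjusted p = 0.0695).

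Xrcc2, which helps to build the recombination filament, had the largest fall of this group in BMSC, at 6.17, 6.77 and 6.13 TPM in the Aged_NZM libraries and 9.75, 10.98 and 9.65 TPM in the Aged libraries (log2 change -0.60, SE 0.077, adjusted p = 8.19e-05). In BMDM it was at 3.76, 3.48 and 3.01 TPM in the LPS_NZM libraries, 2.45, 2.41 and 1.82 TPM in the LPS libraries and 4.09, 4.57 and 3.58 TPM in the Control libraries. Its calls with LPS and with NZM after LPS (-0.66 and 0.46) were both lost after centring. Rad51c, which acts in the same step, was at 1.54, 1.31 and 1.45 TPM in LPS_NZM, 0.410, 0.830 and 0.840 TPM in LPS and 3.8, 2.23 and 2.85 TPM in Control. Its rise with NZM (0.53, adjusted p = 0.0155) was lost after centring and without LPS replicate 1 (log2 change 0.41, adjusted p = 0.0622). Rad54l, a DNA motor of recombination, changed by -1.33 with LPS and 0.73 with NZM after LPS, and by -0.012 in BMSC, where it was not called. Bard1 fell with LPS (-0.64) and fell with NZM in BMSC (-0.41). Its call in LPS_NZM against Control (-0.38, adjusted p = 0.0191) was lost after centring and without LPS_NZM replicate 2, LPS_NZM replicate 3, Control replicate 2 or Control replicate 3 (log2 changes of -0.37 to -0.35, adjusted p = 0.0526 to 0.0601).

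The Fanconi anaemia pathway repairs links between the strands, through a core complex with Fanca and a clamp of Fancd2 and Fanci. All 3 genes fell with LPS by similar amounts, with log2 changes of -0.62, -0.72 and -0.71, and none of these calls held after centring. Fancd2 was at 2.25, 2.0 and 2.4 TPM in the LPS_NZM libraries, 1.2, 1.66 and 1.66 TPM in the LPS libraries and 2.93, 3.23 and 3.21 TPM in the Control libraries. The LPS libraries lay lowest, without overlap. Its rise with NZM (0.36, adjusted p = 0.0149) was lost after centring and without LPS replicate 1 (log2 change 0.27, adjusted p = 0.0605). Its call in LPS_NZM against Control (-0.36, adjusted p = 0.0266) was lost after centring and without LPS_NZM replicate 1, LPS_NZM replicate 2, Control replicate 2 or Control replicate 3 (log2 changes of -0.37 to -0.31, adjusted p = 0.0587 to 0.0911). Fanci was at 1.86, 2.27 and 2.34 TPM in the LPS_NZM libraries, 1.41, 1.12 and 1.17 TPM in the LPS libraries and 2.46, 2.39 and 3.17 TPM in the Control libraries, with a rise with NZM after LPS (log2 change 0.50, SE 0.13, adjusted p = 0.00449) that was lost after centring.

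Fanca was at 5.49, 4.23 and 4.33 TPM in the LPS_NZM libraries, 3.81, 3.87 and 3.75 TPM in the LPS libraries and 6.22, 6.43 and 6.58 TPM in the Control libraries. LPS_NZM replicate 1 was the highest of its group, and the small rise with NZM (0.23, adjusted p = 0.0465) was lost on leaving out any 1 of the 3 LPS or 3 Control libraries, and on leaving out LPS_NZM replicate 1, where it was 0.13, adjusted p = 0.178. In the other 6 cases the log2 change lay between 0.22 and 0.24 and the adjusted p between 0.0593 and 0.101. After centring the change of Fanca with NZM was -0.23 and not called. In BMSC Fanca and the clamp genes changed in opposite directions with NZM. Fanca was at 5.75, 4.97 and 5.41 TPM in the Aged_NZM libraries and 9.01, 8.14 and 8.41 TPM in the Aged libraries and fell (log2 change -0.58, SE 0.079, adjusted p = 0.000119). Fancd2 was at 7.52, 8.41 and 7.52 TPM in the Aged_NZM libraries and 5.63, 6.89 and 7.13 TPM in the Aged libraries, all Aged_NZM libraries above all Aged libraries, yet not called (log2 change 0.23, SE 0.094, adjusted p = 0.0546). It was called after centring (0.39, adjusted p = 0.00912) and without Aged replicate 3 (log2 change 0.28, adjusted p = 0.0362). Fanci was at 5.75, 5.47 and 5.54 TPM in the Aged_NZM libraries and 5.12, 4.0 and 4.45 TPM in the Aged libraries and rose (log2 change 0.26, SE 0.094, adjusted p = 0.0322), more so after centring (0.42). Its call was lost without Aged_NZM replicate 1, Aged_NZM replicate 2, Aged_NZM replicate 3, Aged replicate 2 or Aged replicate 3 (log2 changes of 0.19 to 0.27, adjusted p = 0.0612 to 0.115).

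End joining begins with the Ku ring of Xrcc5 and Xrcc6, which recruits the kinase Prkdc, and ends with Xrcc4 and the ligase Lig4. The Ku subunits act as a pair but differed in level and response. Xrcc6 was at 31.3, 32.6 and 33.9 TPM in the LPS_NZM libraries, 8.6, 10.6 and 9.41 TPM in the LPS libraries and 30.5, 30.8 and 31.6 TPM in the Control libraries. The LPS libraries stood alone, and LPS_NZM overlapped with Control. It fell with LPS (log2 change -1.60, SE 0.069, adjusted p = 1.04e-08), rose with NZM (log2 change 1.68, SE 0.069, adjusted p = 7.18e-09) and showed no called difference between LPS_NZM and Control (0.071). Xrcc5 was at 3.48, 3.72 and 4.6 TPM in the LPS_NZM libraries, 2.59, 3.48 and 3.38 TPM in the LPS libraries and 6.81, 5.22 and 5.03 TPM in the Control libraries. Its LPS_NZM and LPS libraries overlapped, and its rise was not called (log2 change 0.25, SE 0.14, adjusted p = 0.128). Its fall with LPS (-0.69, adjusted p = 0.00111) was lost after centring.

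In LPS_NZM against Control, Xrcc5 was called at -0.44 (adjusted p = 0.0272), but not after centring. The call was also lost without LPS_NZM replicate 1, LPS_NZM replicate 2 or Control replicate 1 (log2 changes of -0.41 to -0.32, adjusted p = 0.0784 to 0.0946). In BMSC the Ku genes fell by similar amounts. Xrcc6 was at 59.6, 62.6 and 63.1 TPM in the Aged_NZM libraries and 84.7, 82.2 and 80.3 TPM in the Aged libraries (log2 change -0.41, SE 0.040, adjusted p = 1.28e-05). Xrcc5 was at 21.7, 25.6 and 21.6 TPM in the Aged_NZM libraries and 34.9, 32.7 and 32.2 TPM in the Aged libraries (log2 change -0.52, SE 0.070, adjusted p = 0.000109). Neither overlapped between the BMSC groups, and both calls held after centring.

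Prkdc was at 3.74, 3.6 and 3.98 TPM in the LPS_NZM libraries, 1.19, 1.05 and 1.14 TPM in the LPS libraries and 5.77, 6.32 and 6.01 TPM in the Control libraries. The 3 groups did not overlap, and LPS_NZM lay between the others, with log2 changes of -1.73 for LPS, 1.17 for NZM after LPS and -0.56 for LPS_NZM against Control (adjusted p = 3.55e-08, 7.16e-07 and 0.000536). In BMSC the groups overlapped, at 4.53, 4.8 and 5.28 TPM in the Aged_NZM libraries and 5.76, 5.06 and 4.91 TPM in the Aged libraries (log2 change -0.088, SE 0.091, adjusted p = 0.407). Lig4 fell with LPS (-0.64) and with NZM in BMSC (-0.49). Its rise with NZM after LPS (0.31, adjusted p = 0.029) was lost after centring and without LPS_NZM replicate 2, LPS_NZM replicate 3, LPS replicate 1 or LPS replicate 3 (log2 changes of 0.22 to 0.31, adjusted p = 0.0619 to 0.107). Its call in LPS_NZM against Control (-0.34, adjusted p = 0.0323) was lost after centring and without LPS_NZM replicate 1, LPS_NZM replicate 2, Control replicate 2 or Control replicate 3 (log2 changes of -0.35 to -0.25, adjusted p = 0.0654 to 0.116).

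Xrcc4 had the smallest log2 changes of the end joining genes with LPS and with NZM after LPS on the deposited scale, at 13.4, 13.3 and 14.5 TPM in the LPS_NZM libraries, 11.9, 11.8 and 13.03 TPM in the LPS libraries and 17.1, 17.3 and 13.4 TPM in the Control libraries. Control replicate 3 lay under the other Control libraries. The log2 change was -0.35 with LPS (adjusted p = 0.00571) and 0.16 with NZM after LPS, not called (adjusted p = 0.152). After centring these were 0.20 (not called) and -0.31 (adjusted p = 0.0113), so the direction in BMDM rests on the scale. Without Control replicate 3 the calls were 0.16, adjusted p = 0.0476 for NZM after LPS and -0.31, adjusted p = 0.00744 for LPS_NZM against Control.

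Base excision held the single gene with the largest log2 change with LPS, with NZM after LPS and with NZM in BMSC. Ung was at 6.22, 5.08 and 5.28 TPM in the LPS_NZM libraries, 0.990, 0.780 and 0.570 TPM in the LPS libraries and 9.03, 9.69 and 9.49 TPM in the Control libraries. All LPS libraries lay under 1 TPM, far from both other groups, and LPS_NZM lay between LPS and Control. The group mean was 5.53 ± 0.609 TPM in LPS_NZM, 0.780 ± 0.210 TPM in LPS and 9.403 ± 0.338 TPM in Control (SD, n = 3 each). Ung fell with LPS (log2 change -2.55, SE 0.11, adjusted p = 1.16e-08), rose with NZM (log2 change 1.88, SE 0.11, adjusted p = 1.16e-07) and was lower in LPS_NZM than in Control (log2 change -0.68, SE 0.11, adjusted p = 0.000739). Its BMSC levels were 3.05, 4.2 and 3.69 TPM in the Aged_NZM libraries and 13.8, 14.3 and 13.9 TPM in the Aged libraries, its means being 3.65 ± 0.576 TPM in Aged_NZM and 14.0 ± 0.282 TPM in Aged (log2 change -1.70, SE 0.095, adjusted p = 2.90e-07).

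Apex1 was at 121, 121 and 116 TPM in the LPS_NZM libraries, 24.4, 24.9 and 21.2 TPM in the LPS libraries and 85.4, 86.1 and 92.7 TPM in the Control libraries. Here LPS_NZM lay above Control, with no overlap, and it was the only gene of the 35 called higher in that comparison (log2 change 0.43, SE 0.060, adjusted p = 0.000238). The changes with LPS (log2 change -1.86, SE 0.060, adjusted p = 1.25e-09) and with NZM after LPS (log2 change 2.30, SE 0.060, adjusted p = 2.60e-10), the second being larger than that of Ung, were both called. In BMSC Apex1 was at 112, 116 and 122 TPM in the Aged_NZM libraries and 222, 221 and 218 TPM in the Aged libraries, all Aged_NZM libraries lying under all Aged libraries (log2 change -0.91, SE 0.039, adjusted p = 5.02e-08). Ogg1 was at 17.8, 15.8 and 18.5 TPM in the LPS_NZM libraries, 5.56, 5.49 and 6.7 TPM in the LPS libraries and 17.4, 18.5 and 17.8 TPM in the Control libraries. Its LPS libraries stood apart below, while LPS_NZM and Control overlapped. It fell with LPS (-1.45, adjusted p = 1.00e-07) and rose with NZM (1.41, adjusted p = 1.23e-07). BMSC levels were 33.5, 29.1 and 31.6 TPM in the Aged_NZM libraries and 50.2, 45.9 and 45.99 TPM in the Aged libraries (log2 change -0.58, SE 0.061, adjusted p = 2.02e-05).

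Polb went against the other base excision genes in BMDM, at 32.2, 30.7 and 28.2 TPM in the LPS_NZM libraries, 49.5, 49.4 and 42.1 TPM in the LPS libraries and 40.99, 40.3 and 37.9 TPM in the Control libraries. LPS_NZM lay lowest, LPS highest and Control between them. The rise with LPS was small (log2 change 0.23, SE 0.072, adjusted p = 0.0129), and it was lost without LPS replicate 1 or LPS replicate 2 (log2 changes of 0.19 to 0.20, adjusted p = 0.0502 to 0.0507). The fall with NZM was larger (log2 change -0.61, SE 0.072, adjusted p = 2.37e-05), and Polb ended under Control (-0.38, adjusted p = 0.00181). After centring the changes were 0.78 with LPS and -1.07 with NZM. In BMSC Polb was at 59.2, 59.4 and 62.8 TPM in the Aged_NZM libraries and 70.9, 71.97 and 67.6 TPM in the Aged libraries and fell (-0.21, adjusted p = 0.00157), a call lost after centring. Xrcc1 and the ligase gene Lig3, whose products work as a pair, changed by -1.03 and -0.73 with LPS, by 1.14 and 0.71 with NZM after LPS, and by -0.22 and -0.50 in BMSC. All 6 were called. After centring the changes of Lig3 in BMDM and of Xrcc1 in BMSC were not.

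Mismatch repair was represented by Msh6, which recognises mispaired bases. Msh6 was at 13.1, 14.4 and 15.5 TPM in the LPS_NZM libraries, 5.59, 5.83 and 6.71 TPM in the LPS libraries and 24.4, 28.7 and 28.3 TPM in the Control libraries. The groups did not overlap, and LPS_NZM stood between LPS and Control. It fell with LPS (log2 change -2.0, SE 0.090, adjusted p = 1.52e-08), rose with NZM (log2 change 1.12, SE 0.090, adjusted p = 1.24e-06) and was lower in LPS_NZM than in Control (log2 change -0.88, SE 0.090, adjusted p = 3.21e-05). In BMSC Msh6 was at 38.6, 40.7 and 40.9 TPM in the Aged_NZM libraries and 61.9, 62.1 and 63.04 TPM in the Aged libraries (log2 change -0.62, SE 0.040, adjusted p = 7.28e-07).

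In nucleotide excision, the lesion sensor Xpc moved most in BMDM. Xpc was at 13.8, 13.8 and 12.9 TPM in the LPS_NZM libraries, 5.27, 4.57 and 5.22 TPM in the LPS libraries and 17.1, 17.6 and 18.01 TPM in the Control libraries. The groups did not overlap. It fell with LPS (log2 change -1.63, SE 0.067, adjusted p = 7.82e-09), rose with NZM (log2 change 1.27, SE 0.067, adjusted p = 4.93e-08) and was lower in LPS_NZM than in Control (-0.36, adjusted p = 0.00163). For BMSC the values were 22.1, 21.3 and 21.9 TPM in the Aged_NZM libraries and 31.5, 32.2 and 32.5 TPM in the Aged libraries (log2 change -0.54, SE 0.044, adjusted p = 3.60e-06). Xpa, which verifies the lesion, and Ercc1, a subunit of a nuclease that cuts beside it, changed less, by -0.43 and -0.38 with LPS and by 0.48 and 0.50 with NZM after LPS. These 4 calls were lost after centring. In BMSC they changed by -0.22 and -0.48. The call of Xpa was lost after centring and without Aged_NZM replicate 2 (log2 change -0.17, adjusted p = 0.0657).

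Ddb2, which brings Xpc to ultraviolet lesions, was the gene that rose most with NZM in BMSC (log2 change 0.54, SE 0.050, adjusted p = 8.31e-06). The libraries given above did not overlap, with means of 36.5 ± 1.23 TPM in Aged_NZM and 24.7 ± 1.06 TPM in Aged (SD, n = 3 each). In BMDM Ddb2 was at 4.39, 2.88 and 3.3 TPM in the LPS_NZM libraries, 1.46, 2.43 and 2.34 TPM in the LPS libraries and 3.85, 5.14 and 4.32 TPM in the Control libraries. The LPS libraries lay lowest, with LPS_NZM and Control overlapping. The log2 changes were -0.83 with LPS (adjusted p = 0.00112) and 0.56 with NZM after LPS (adjusted p = 0.0123). Neither held after centring, and the second was lost without LPS_NZM replicate 1 (log2 change 0.42, adjusted p = 0.0502).

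A wider list of 122 other repair genes was set beside the 35, of which 121 matched a row and 119 were tested in each cell type. With LPS 105 of the 119 fell and 4 rose, with a median of -0.88, or 67 and 21 after centring. With NZM after LPS 98 rose and 6 fell, with a median of 0.67, or 58 and 18 after centring. In LPS_NZM against Control 48 were lower and 14 higher, or 39 and 22 after centring. In BMSC 83 fell with NZM and 7 rose, with a median of -0.35, or 65 and 15 after centring. Of all tested genes 65.6% were lower and 15.2% higher with LPS, and 60.4% higher and 16.9% lower with NZM after it. In LPS_NZM against Control 29.1% were lower and 18.6% higher, and in BMSC 48.9% lower and 21.6% higher. After centring the shares were, in the same order, 29.1% and 36.5%, 29.8% and 35.3%, 22% and 24.9%, and 35.4% and 31.1%. The medians of all tested genes were -0.48 with LPS, 0.40 with NZM after it and -0.18 in BMSC. All 17 other nucleotide excision genes fell with LPS and rose with NZM after it, by log2 changes of -1.18 to -0.27 and 0.45 to 1.07, beside the 65.6% of all tested genes lower with LPS and the 60.4% higher with NZM. After centring 6 of the 17 were lower and 4 higher with LPS, and 10 were higher with NZM after it.

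Parp1, which senses strand breaks and recruits Xrcc1, was at 98.4, 98.4 and 106 TPM in the LPS_NZM libraries, 24.8, 23.8 and 25.5 TPM in the LPS libraries and 105, 112 and 107 TPM in the Control libraries. The LPS libraries stood apart, and LPS_NZM overlapped with Control. Parp1 fell with LPS (-2.08) and had the largest rise of the wider list with NZM (1.99). Next was Fance, of the Fanconi core complex (1.85). The largest falls with NZM were those of Dclre1c, the nuclease that opens hairpins in end joining (log2 change -0.80, SE 0.047, adjusted p = 1.17e-07), and Atrip, the partner of Atr (-0.64, adjusted p = 0.0496). Atrip scattered in LPS, at 48.9, 29.7 and 69.8 TPM. Its call with NZM was lost without LPS_NZM replicate 2, LPS_NZM replicate 3, LPS replicate 1, LPS replicate 3, Control replicate 1 or Control replicate 2 (log2 changes of -0.64 to -0.36, adjusted p = 0.0609 to 0.187). Its rise with LPS (0.72, adjusted p = 0.0301) was lost without LPS replicate 1, LPS replicate 3, Control replicate 1 or Control replicate 2 (log2 changes of 0.44 to 0.69, adjusted p = 0.0724 to 0.111). Polm, a polymerase of end joining, also rose with LPS (log2 change 0.45, SE 0.061, adjusted p = 6.11e-05).

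In LPS_NZM against Control the largest rise of the wider list was that of Rmi2, of the complex that dissolves recombination intermediates (0.72). Rmi2 was at low levels, with 2.07, 2.29 and 1.97 TPM in the LPS_NZM libraries and 1.14, 0.51 and 1.07 TPM in the Control libraries. The largest falls were those of the fork protection gene Timeless (-1.30) and Lig1, the ligase of replication (-1.02). In BMSC, the glycosylase gene Neil3 was at 12.03, 10.7 and 13.2 TPM in the Aged_NZM libraries and 6.07, 4.84 and 5.83 TPM in the Aged libraries (log2 change 0.98, SE 0.099, adjusted p = 1.54e-05). Rev3l, the catalytic subunit of a translesion polymerase, was at 23.4, 24.5 and 25.7 TPM in the Aged_NZM libraries and 14.9, 14.8 and 14.4 TPM in the Aged libraries (log2 change 0.70, SE 0.054, adjusted p = 2.46e-06). For both genes all Aged_NZM libraries lay above all Aged libraries. Msh3, of mismatch repair (-1.16), and Hus1, of the clamp that activates Atr (-1.06), fell most.

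Replication, mitosis and the p53 response bear on repair genes, and 20 genes were listed for each. Of the replication genes 19 fell with LPS (median -1.78) and 19 rose with NZM after it (median 0.94), while 18 fell and 1 rose with NZM in BMSC (median -0.71). The medians of all tested genes were -0.48, 0.40 and -0.18 in these comparisons. Of all tested genes 65.6% were lower with LPS, 60.4% higher with NZM after it and 48.9% lower with NZM in BMSC. Their summed level was 789.6 to 800.7 TPM in LPS_NZM, 371.8 to 389.8 TPM in LPS and 1369 to 1427 TPM in Control. In BMSC the sums were 1067 to 1101 TPM in Aged_NZM and 1808 to 1896 TPM in Aged. After centring 19 replication genes were lower and 1 higher with LPS, 17 were higher and 1 lower with NZM after it, and 16 were lower and 2 higher with NZM in BMSC. The centred shares of all tested genes were 29.1% lower with LPS, 29.8% higher with NZM after it and 35.4% lower in BMSC. Of the mitotic genes in BMSC, 19 of 20 rose with NZM (median 0.62), and 20 of 20 after centring. This stands beside 21.6% of all tested genes higher, or 31.1% after centring. Mki67, a marker of cycling cells, was at 41.05, 46.5 and 44.1 TPM in the Aged_NZM libraries and 23.0, 20.8 and 22.1 TPM in the Aged libraries (log2 change 0.97, SE 0.059, adjusted p = 4.98e-07), and Top2a, which untangles chromosomes, rose too (0.45, adjusted p = 9.92e-06). In BMDM 17 of 20 mitotic genes fell with LPS (median -0.48), or 1 fell and 7 rose after centring. With NZM after LPS 12 rose and 1 fell, or 1 and 8 after centring.

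Of 20 target genes of p53, 13 fell and 4 rose with LPS, or 6 and 9 after centring. Their median was -0.45 beside -0.48 for all tested genes. Of those 65.6% were lower and 15.2% higher, or 29.1% and 36.5% after centring. With NZM after LPS 14 of the p53 targets rose and 3 fell, or 12 and 7 after centring. Of all tested genes 60.4% were higher and 16.9% lower, or 29.8% and 35.3% after centring. With NZM in BMSC 14 of the p53 targets fell and 3 rose, or 12 and 6 after centring. This stands beside 48.9% lower and 21.6% higher of all tested genes, or 35.4% and 31.1% after centring. Cdkn1a, the inhibitor of cyclin-dependent kinases, was at 51.8, 50.5 and 46.5 TPM in the Aged_NZM libraries and 213, 202 and 196 TPM in the Aged libraries (log2 change -2.02, SE 0.050, adjusted p = 2.19e-09). Mdm2, the ligase that limits p53, fell alike (-1.07, adjusted p = 3.31e-08), as did Trp53 itself (-0.50, adjusted p = 8.05e-06). In BMDM Cdkn1a was at 2184, 2163 and 2204 TPM in the LPS_NZM libraries, 2189.9, 2174 and 2266 TPM in the LPS libraries and 707, 740.1 and 750.0 TPM in the Control libraries. It rose with LPS (log2 change 1.59, SE 0.028, adjusted p = 1.51e-11) and showed no called change with NZM after it as deposited (-0.017, adjusted p = 0.589), but was called lower after centring (log2 change -0.48, adjusted p = 4.95e-07). Mdm2 and Trp53 were lower with LPS (-0.41, adjusted p = 8.57e-06, and -0.66, adjusted p = 3.89e-06). After centring Mdm2 was called higher (0.14) and Trp53 was not called (-0.11). With NZM after LPS they rose by 0.13 (adjusted p = 0.0176) and 0.64 (adjusted p = 5.54e-06). After centring Mdm2 was called lower (-0.33) and Trp53 higher (0.17). The deposited call of Mdm2 with NZM was lost without LPS_NZM replicate 3 or LPS replicate 1. The part of the cell cycle in the changes of the repair genes was not tested.

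**Figure D4:**
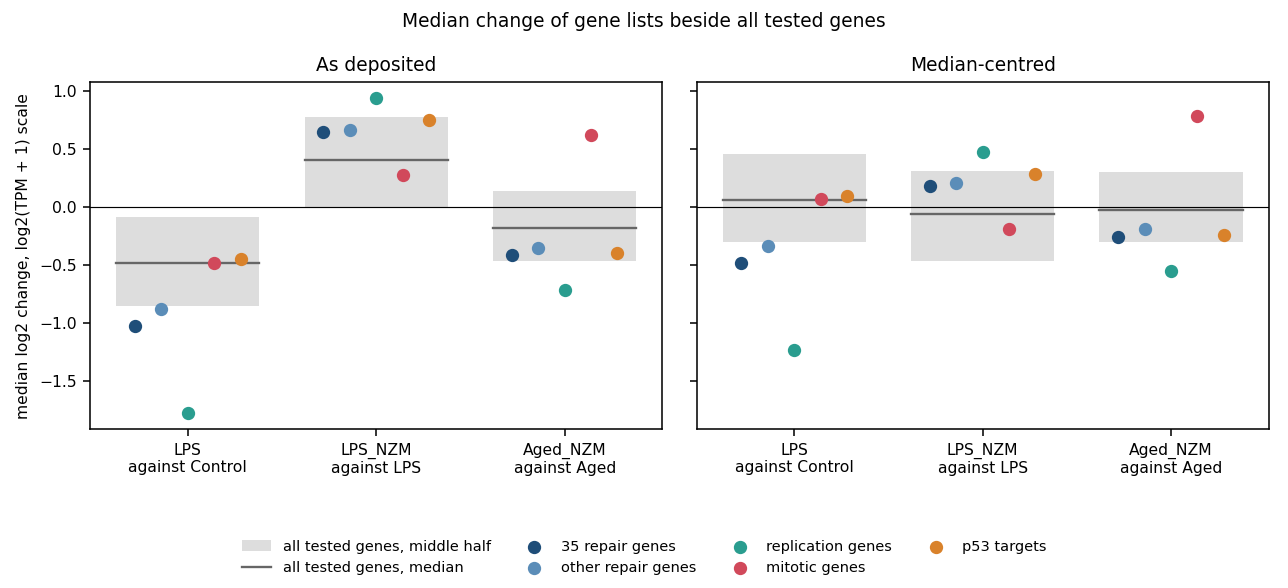
Median log2 change of the 35 repair genes, the other repair genes, and the replication, mitotic and p53 target lists, as deposited and after median centring, over a grey band for the middle 50% of all tested genes and a line for their median. The repair genes lie below the line with LPS and with NZM in BMSC, and above it with NZM after LPS. The mitotic genes lie apart, above the band, in Aged_NZM against Aged.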

How the data were processed

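Per the labels, polyadenylated RNA of wild-type mouse BMDM (9 libraries) and BMSC (6 libraries) was sequenced from stranded libraries. The authors deposited 1 table of TPM for 56979 Ensembl identifiers. Per the submitters' processing notes the tools were fastp, HISAT2, StringTie and RSEM and the build GRCm39, with no versions or roles. Annotation and use of strand are not given in the sources used here. Each column sums to the same total, so depth is unknown and no counting interval is given. Symbols came from a name table of an older build, which matched 52072 identifiers.

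The members and lists were chosen with earlier results of these data known. TPM were taken as log2(TPM + 1) and fitted with limma 3.58.1 (R 4.3.3; lmFit, eBayes with trend, two-sided, Benjamini-Hochberg over all tested genes, called at adjusted p under 0.05), keeping genes with a TPM of at least 1 in at least 3 libraries of the fit. BMDM was fitted over its 9 libraries (14486 genes), BMSC over its 6 (13865 genes), and all 15 for the difference between the NZM responses (16696 genes). Groups followed the titles. No pair of replicate libraries shared more than 0.53% of values, and no library was left out. The procedure was tested on simulated data.

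Members with values in every library were the largest change of each group by role in LPS against Control, LPS_NZM against LPS and Aged_NZM against Aged, plus a fixed set. Polb, Rad51c and Xrcc4 were added after their values were seen. Other repair genes were named for the 2 largest called rises and falls per comparison, plus Parp1, and of the context lists Trp53, Cdkn1a, Mdm2, Mki67 and Top2a. Some genes of this rule are not reported here by name but stay in the counts. Promoter windows came from RefSeq GRCm38.p6.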

Additional observations from a re-analysis of the deposited data

Results flagged for a closer look

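The response to NZM differed between the cell types for 30 of the 35 genes, by limma's test of the difference itself over all 15 libraries. Of all 16696 genes tested, 54.8% were called lower and 17.2% higher in this test. Their median difference was -0.45. Each value is the log2 change in BMSC minus that in BMDM, so a negative one means a lower response in BMSC. In signalling the differences were Atm (-1.38), Atr (-1.46), Chek1 (-1.48), Chek2 (-1.62) and Trp53bp1 (-1.13). In the Mre11 complex they were Mre11a (-1.20), Rad50 (-1.32) and Nbn (-1.51). In homologous recombination they were Brca1 (-0.97), Brca2 (-0.80), Bard1 (-0.67), Palb2 (-1.03), Rad51c (-0.94), Rad54l (-0.74) and Xrcc2 (-1.05), and in the Fanconi pathway Fanca (-0.81). In end joining they were Xrcc5 (-0.77), Xrcc6 (-2.09), Prkdc (-1.25) and Lig4 (-0.80). In base excision they were Ogg1 (-1.99), Apex1 (-3.20), Ung (-3.58), Polb (0.40), Xrcc1 (-1.36) and Lig3 (-1.21). In mismatch repair Msh6 differed by -1.75, and in nucleotide excision the values were Ercc1 (-0.98), Xpa (-0.70) and Xpc (-1.81). Of the 29 negative differences 21 were also called after median centring, and so was the positive difference of Polb. The model drug and the cell type cannot be told apart in these values.

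The same test called 15 of the other named genes, beside the shares of all tested genes given above. Of the wider repair list these were Polm (0.20), Parp1 (-2.51), Fance (-2.45), Dclre1c (0.67), Rmi2 (-1.40), Timeless (-0.32), Lig1 (-0.88), Neil3 (0.51), Msh3 (-1.91) and Hus1 (-1.24). Of the p53 and cycle genes they were Trp53 (-1.14), Cdkn1a (-2.00), Mdm2 (-1.20), Mki67 (1.13) and Top2a (0.17). The calls of Polm, Timeless, Neil3 and Top2a were lost when single libraries were left out, at adjusted p of up to 0.064, 0.12, 0.11 and 0.12. With 3 libraries a group, no group was searched for a library far from the others.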

How the results depend on the processing

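Of 3053 recomputed values of the 35 genes, 2853 kept their direction and their side of the threshold, 138 lost their call, 14 gained 1 and 48 changed sign. Of these sign changes 21 came with median centring, 16 with quantile normalization and 11 with a library left out, and 0 with the other alternatives. Those were no filter, a TPM of at least 5, a pseudocount of 0.1, no mean-variance trend, other libraries in the fit and the replicate block. With a TPM of at least 5, genes under that level gave no value.

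After median centring the count of genes called was 23 in LPS against Control (21 lower) and 19 in LPS_NZM against LPS (16 higher). It was 14 lower and 2 higher in LPS_NZM against Control, 4 higher in Aged_NZM against Aged, and 6 higher in the difference between the NZM responses. With quantile normalization 21 genes were called in LPS_NZM against LPS (18 higher) and 14 in LPS_NZM against Control (13 lower), with 4 higher in Aged_NZM against Aged and 4 higher in the difference. Without a filter 1 gene was higher in Aged_NZM against Aged. The median level of the 35 genes, as log2(TPM + 1), changed on centring over all 15 libraries to 2.87 in LPS, 3.53 in Control, 3.73 in Aged_NZM and 4.26 in Aged, beside 2.40, 3.64, 3.83 and 4.51 as deposited. When each library was left out in turn, 1 to 2 genes were higher in LPS against Control and 1 to 2 in Aged_NZM against Aged. Genes lower in LPS_NZM against Control numbered 16 to 22 (17 to 23 with both directions), and those higher in LPS_NZM against LPS 26 to 30.

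Log2 changes took the opposite sign after median centring as follows. In LPS against Control this gave 0.20 for Xrcc4, 0.17 for Ercc1, 0.11 for Xpa, 0.48 for Dclre1c, 0.32 for Rmi2, 0.23 for Hus1 and 0.14 for Mdm2. In LPS_NZM against LPS this gave -0.016 for Chek1, -0.21 for Bard1, -0.0089 for Xrcc2, -0.23 for Fanca, -0.10 for Fancd2, -0.31 for Xrcc4, -0.21 for Xrcc5, -0.16 for Lig4, -0.29 for Hus1, -0.33 for Mdm2 and -0.19 for Top2a. In LPS_NZM against Control this gave 0.042 for Ogg1, 0.065 for Lig3, 0.042 for Polm and 0.058 for Trp53. In Aged_NZM against Aged this gave 0.11 for Chek2, 0.074 for Trp53bp1, 0.15 for Rad54l, 0.071 for Prkdc and 0.026 for Dclre1c. In the difference between the NZM responses this gave 0.49 for Fancd2, 0.38 for Fanci, 0.58 for Xrcc4, 0.61 for Ddb2, 0.30 for Timeless and 0.42 for Rev3l. The same happened with quantile normalization. In LPS against Control it gave 0.19 for Xrcc4, 0.13 for Ercc1, 0.14 for Xpa, 0.36 for Dclre1c, 0.022 for Rmi2 and 0.26 for Hus1. In LPS_NZM against LPS it gave -0.18 for Fanca, -0.30 for Xrcc4, -0.15 for Xrcc5, -0.038 for Lig4, -0.0017 for Xpa, -0.31 for Hus1, 0.0027 for Cdkn1a and -0.11 for Top2a. In LPS_NZM against Control it gave 0.044 for Ogg1, 0.072 for Lig3 and 0.051 for Polm. In Aged_NZM against Aged it gave 0.082 for Chek2, 0.084 for Trp53bp1, 0.084 for Rad54l and 0.016 for Dclre1c. In the difference between the NZM responses it gave 0.15 for Fancd2, 0.54 for Xrcc4, 0.51 for Ddb2, 0.27 for Timeless and 0.35 for Rev3l. With a pseudocount of 0.1 the difference for Atrip was -0.017. The cause of these changes was not tested, beyond the shift that centring subtracts from every gene.

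With a library left out, the log2 change took both signs for Mki67 (-0.060 to 0.056) in LPS against Control, and for Cdkn1a (-0.029 to 0.0013) in LPS_NZM against LPS, and for Atrip (-0.093 to 0.21), Lig3 (-0.076 to 0.032), Ogg1 (-0.085 to 0.023), Polm (-0.074 to 0.0066), Trp53 (-0.10 to 0.043) and Xpa (-0.015 to 0.11) in LPS_NZM against Control, and for Lig1 (-0.0011 to 0.10) and Rad54l (-0.10 to 0.083) in Aged_NZM against Aged, and for Atrip (-0.28 to 0.32) and Ddb2 (-0.12 to 0.14) in the difference between the NZM responses. The replicate number of the titles was tried as a replicate block. Over 12 pairs of libraries with the same number the correlation of deviations from the group means ran from -0.076 to 0.20, and 2 pairs were above 0.1. The highest value of a pair with different numbers was 0.0996. With 3 libraries a group these correlations cannot decide whether libraries of the same number were paired, and the labels do not say. With the block 35, 31, 22, 29 and 30 genes were called in the 5 comparisons, beside 35, 32, 23, 28 and 30 without it. The block changed the call of Fanca in LPS_NZM against LPS, of Fancd2 in Aged_NZM against Aged and of Xrcc5 in LPS_NZM against Control. The unknown depth means that changes of genes near 1 TPM, such as Brca2 and Bard1 in LPS, carry a counting error that could not be estimated.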
